A study of Drosophila melanogaster with 2 samples.

Results

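The regions described here are the ranked peaks that lie on the Y chromosome or on contigs that the dm6 assembly does not place. They were chosen from the first of the ranked peak lists that the authors made from both replicates, by the chromosome name alone: names that start with Y, with X_ (contigs assigned to X without a position) or with Un (contigs of unknown chromosome). They number 3194 of 119200 peaks, or 2.68% of the list. The Y holds 970 (616 on the chromosome itself and 354 on 121 Y contigs), the unplaced X contigs hold 569 and the contigs of unknown chromosome hold 1655. The other 116006 peaks lie on the assembled chromosome arms (those of chromosomes 2 and 3, and 4 and X) and serve as the comparison.

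The data are anti-GFP chromatin immunoprecipitation sequencing of whole Drosophila melanogaster embryos aged 0 to 18 h that carry an insertion expressing a sisA-eGFP fusion protein. sisA is an X-linked signal element of fly sex determination and encodes a bZIP protein. The labels give 2 biological replicates of this 1 genotype and no second condition, nothing states that they came from separate cultures, and the sex of the embryos was not recorded, so the number of Y chromosomes in the chromatin is unknown. Neither control libraries nor reads were analysed here, so there is no measure of background at repeated sequence. Because the samples form 1 group and peaks are not replicates, no test of difference was possible, and every comparison below is a description.

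The Y chromosome and the unplaced contigs of Drosophila are largely heterochromatin, built of satellite DNA, transposable elements and ribosomal RNA genes. R1 is a retrotransposon that inserts at a single point in 28S rRNA genes. HeT-A and TART are retrotransposons known for forming telomeres and are also found on the Y. The dodeca satellite is a G+C-rich tandem repeat of the pericentromere of the third chromosome, and the X carries a satellite of longer, A+T-rich units. The Y carries few genes, most of them needed for male fertility and active in the male germline.

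The following sequences show what lay under the strongest of these peaks; each is printed 5′ to 3′ in lower case from the dm6 reference, with the bases of interest in capitals. The strongest member of all, on a contig of unknown chromosome (chrUn_CP007100v1:6187-6383), sat on a repeat of 5 bases, and capitals mark exact copies of it. The second sequence comes from the strongest dodeca peak (chrUn_DS484383v1:1793-2132), with exact copies of its units ACCAGTACGGG and ACCGAGTACGGG in capitals.
Pentamer repeat: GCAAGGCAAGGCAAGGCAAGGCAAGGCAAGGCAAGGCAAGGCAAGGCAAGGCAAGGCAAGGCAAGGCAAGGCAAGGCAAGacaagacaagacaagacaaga
Dodeca repeat: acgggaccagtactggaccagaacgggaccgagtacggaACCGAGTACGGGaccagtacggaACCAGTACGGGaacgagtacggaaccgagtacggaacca

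The strongest unplaced X peak (chrX_DS484057v1_random:582-757) lay on 28S rRNA sequence at the point where R1 inserts. It is shown above the end of the annotated R1A1 copy on the X arm (chrX:23234385-23239717) and the bases that follow it. Capitals mark 28S rRNA from the first base after the insertion point in both lines.
28S rRNA under the peak: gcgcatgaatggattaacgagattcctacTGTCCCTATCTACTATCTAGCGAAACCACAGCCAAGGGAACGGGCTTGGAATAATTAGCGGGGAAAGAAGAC
R1A1 end and the bases after it: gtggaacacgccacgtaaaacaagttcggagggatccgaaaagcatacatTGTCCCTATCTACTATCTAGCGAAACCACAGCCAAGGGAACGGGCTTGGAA

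Within R1A1 itself, the bin of bases 501 to 750 held the most peaks. The last 100 bases of that bin in the copy on the X arm are printed here with the same stretch under a Y peak (chrY:994190-994529), under the strongest unplaced X peak of the bin and under another. Capitals mark bases that differ from the copy on the X arm or are missing from it.
R1A1 copy on the X arm: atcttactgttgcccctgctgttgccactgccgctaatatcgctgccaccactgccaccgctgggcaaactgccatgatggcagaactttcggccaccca
Y chromosome peak: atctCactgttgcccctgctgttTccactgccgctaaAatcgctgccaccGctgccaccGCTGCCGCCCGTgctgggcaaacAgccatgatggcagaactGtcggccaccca
First unplaced X peak: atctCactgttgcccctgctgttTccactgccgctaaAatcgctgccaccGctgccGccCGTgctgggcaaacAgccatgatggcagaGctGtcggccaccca
Second unplaced X peak: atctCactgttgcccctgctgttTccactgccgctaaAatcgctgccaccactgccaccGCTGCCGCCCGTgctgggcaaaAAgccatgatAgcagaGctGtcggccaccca

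A window from the satellite family of unplaced X contigs is shown with capitals on the bases whose 25-base words recur exactly 359 bases away. The strongest Y contig peak (chrY_DS485927v1_random:205-544), which matched HeT-A, is shown without capitals.
Satellite with 359-base spacing: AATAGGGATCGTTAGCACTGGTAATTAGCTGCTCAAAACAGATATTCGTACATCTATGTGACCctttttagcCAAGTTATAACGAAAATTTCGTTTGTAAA
HeT-A on a Y contig: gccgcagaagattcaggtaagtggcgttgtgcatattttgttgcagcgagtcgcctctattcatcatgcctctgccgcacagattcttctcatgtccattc

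The classes differed in how densely they held ranked peaks. Per megabase of known sequence, the Y chromosome had 181 peaks, the Y contigs 445, the unplaced X contigs 610.2 and the contigs of unknown chromosome 439, against 868.0 on the arms. All 4 classes were thus sparser than the arms. The contigs are short: of 209 unplaced X contigs with a peak, 98 had only 1, and of 580 contigs of unknown chromosome with a peak, 249 had only 1.

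The signal of a peak, the authors' peak caller's own value with no stated normalization, was low on the Y and ordinary on the unplaced X. Its median was 10.8 on the Y chromosome, 12.8 on Y contigs, 23.98 on unplaced X contigs and 13.7 on contigs of unknown chromosome, against 22.4 on the arms. Ranked within the list from 0 to 100, the median percentiles were 19.3, 24.5, 54.7 and 27.01 in the same order, against 50.6 on the arms. The strongest members nevertheless reached the top of the list, with a signal of 1383 on a contig of unknown chromosome, 1050.5 on an unplaced X contig, 276 on a Y contig and 126 on the Y chromosome, against a maximum of 3554 on the arms.

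**Figure D1:**
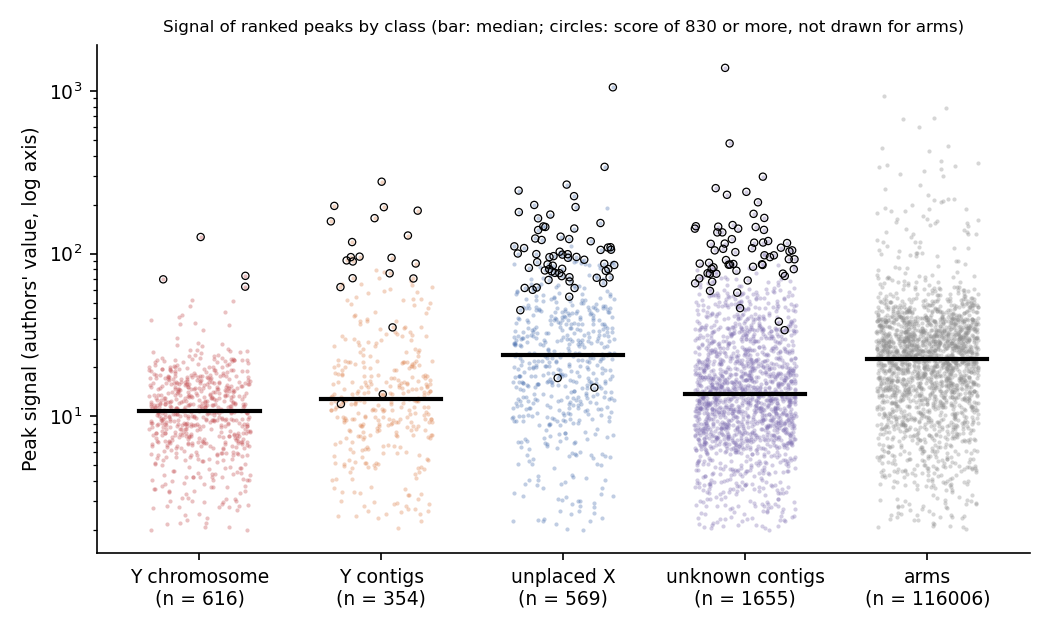
Signal of each ranked peak (log axis) on the Y chromosome, Y contigs, unplaced X contigs, contigs of unknown chromosome and, for the arms, a random 2000 of the 116006 peaks. Bars are medians (10.8, 12.8, 23.98, 13.7 and 22.4), and circles mark members with a score of 830 or more, which are few on the Y chromosome and many on unplaced X contigs.

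The score derived from the irreproducible discovery rate (IDR) reaches 830 at a rate of 0.01, the threshold of the authors' shorter lists. Of all ranked peaks, 4.55% had a score of 830 or more. The share was 0.649% on the Y chromosome (4 of 616), 5.93% on Y contigs (21 of 354), 11.4% on unplaced X contigs (65 of 569) and 3.87% on contigs of unknown chromosome (64 of 1655), against 4.54% on the arms (5265 peaks). The Y chromosome thus lay below the share of the whole list, the unplaced X above it, and the other classes near it in this list.

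The replicates, each taken alone, kept the order of Y chromosome lowest and unplaced X highest. In replicate 1, 1 of 265 Y chromosome peaks and 30 of 425 unplaced X peaks had a score of 830 or more, beside 4.83% of all peaks of that list. In replicate 2, 2 of 365 Y chromosome peaks and 75 of 535 unplaced X peaks did, beside 3.46% of all peaks of that list. For the contigs of unknown chromosome the numbers were 35 of 983 in replicate 1 and 78 of 1271 in replicate 2, or 3.56% and 6.14%. For Y contigs they were 11 of 181 (6.08%) and 17 of 231 (7.36%). In replicate 2 both classes thus lay above the share of that replicate's whole list, and in replicate 1 the contigs of unknown chromosome lay below it.

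The conservative list of 5202 peaks, or 4.36% of the ranked peaks, treated the classes unlike the score. It held all 4 Y chromosome peaks and all 65 unplaced X peaks with a score of 830 or more. It held none of the 21 peaks on Y contigs and none of the 64 on contigs of unknown chromosome that reached the same score. On the arms, 132 peaks with a score of 830 or more were also missing from it, 71 of them on 3R. Among the authors' other thresholded lists, the longer list of both replicates held 84 unplaced X and 4 Y chromosome peaks, that of replicate 1 held 30 and 1, and that of replicate 2 held 75 and 2. No thresholded list had a peak on a Y contig or a contig of unknown chromosome. The deposited file listings name a further source file for the thresholded lists that they do not name for the ranked lists and do not describe, so absence from a thresholded list may not depend on the score alone. What removed these peaks was not tested.

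Members were seen less often than arm peaks in both replicates' own ranked lists, except on unplaced X contigs. A summit lay within 100 bp in both lists for 40.8% of all ranked peaks and 28.02% of the members. The share was 10.9% on the Y chromosome (67 peaks), 21.8% on Y contigs (77), 45.9% on unplaced X contigs (261) and 29.6% on contigs of unknown chromosome (490), against 41.2% on the arms. On the Y chromosome 293 of 616 peaks had no such summit in either replicate. The unplaced X was the class nearest to the arms, with 15.99% of peaks in neither replicate, against 15.4% on the arms.

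**Figure D2:**
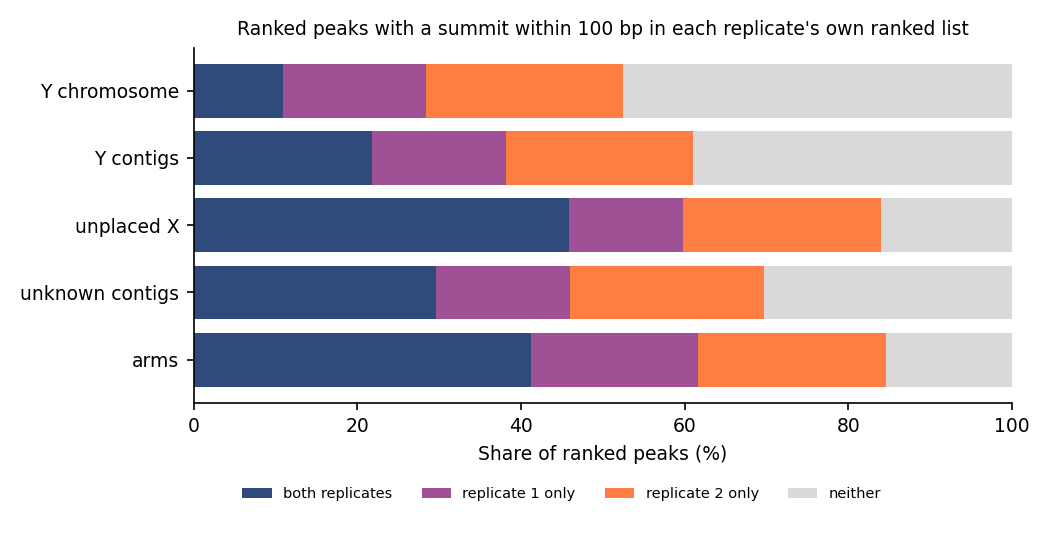
Share of ranked peaks (%) of each class with a summit within 100 bp in both replicates' ranked lists, in 1 replicate's list only or in neither. The Y chromosome has the smallest share in both (10.9%) and the unplaced X the largest (45.9%), against 41.2% on the arms.

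Where a member was matched in both replicates, it tended to rank higher in replicate 2 on the unplaced contigs. The percentile within the replicate's own list was higher in replicate 2 for 191 of 261 unplaced X members (73.2%), 323 of 490 on contigs of unknown chromosome (65.9%) and 50 of 77 on Y contigs (64.9%), but for 27 of 67 on the Y chromosome (40.3%), against 51.6% on the arms. Median percentiles on unplaced X contigs were 66.6 in replicate 1 and 86.1 in replicate 2, against 63.1 and 64.0 on the arms. Whether the libraries differed in their content of repeated sequence was not tested.

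Most members lay in sequence that the assembly holds more than once, which is also true of their classes at large. A window reaching 100 bases to each side of the summit was called repeated when its 31-base words had a median of 2 or more copies in the assembly, as 4.26% of all ranked peaks did. The share was 54.9% on the Y chromosome, 69.5% on Y contigs, 93.8% on unplaced X contigs and 72.9% on contigs of unknown chromosome, against 2.37% of arm peaks. Over all windows of each class it was 87.3%, 85.5%, 97.4% and 82.6% in the same order, and 12.8% on the arms. In each class, peaks were thus in repeated sequence less often than windows at large. The sources used here do not say how the authors treated reads that fit several places, and its part in these peaks was not tested.

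Members were also richer in G+C than their classes at large. Median G+C was 44.3% on the Y chromosome, 45.8% on Y contigs, 53.2% on unplaced X contigs and 49.3% on contigs of unknown chromosome, against 39.3%, 40.3%, 31.8% and 39.3% over all windows of the same classes. On the arms it was 48.3% in peaks and 42.3% in windows, so the gap was widest on the unplaced X. Arm peaks with a score of 830 or more had a median of 35.8%, below that of arm windows. Members with such a score had 57.2% on the Y chromosome (4 peaks), 49.8% on Y contigs, 56.2% on unplaced X contigs and 59.7% on contigs of unknown chromosome.

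R1A1, the R1 element in this annotation, was the main content of the unplaced X peaks. It matched 356 of 569 windows (62.6%), while it matched 27.5% of all windows of the class. It matched 68.0% of replicate 1 peaks and 62.6% of replicate 2 peaks on these contigs. Of the 65 unplaced X peaks with a score of 830 or more, 57 were R1A1, a share of 16.01% of R1A1 peaks against 3.76% of the other unplaced X peaks (8 of 213). R1A1 peaks on the arms, 110 in number, had a like share of 16.4%, against 4.53% of the other arm peaks. R1A1 was not more frequent in arm peaks (0.0948%) than in arm windows (0.0963%).

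**Figure D3:**
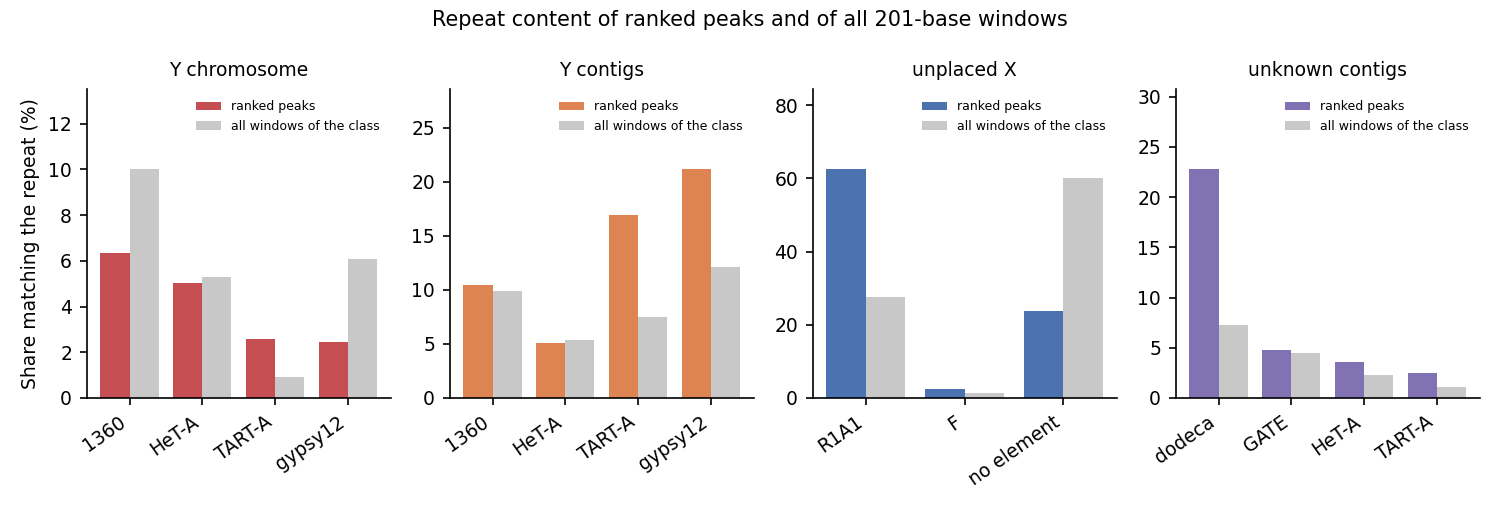
Share (%) of ranked peaks (coloured) and of all windows of that length (grey) of each class that match a transposable element or, for contigs of unknown chromosome, the exact dodeca repeat. R1A1 makes up 62.6% of unplaced X peaks beside 27.5% of windows, and the dodeca repeat 22.8% of peaks on contigs of unknown chromosome beside 7.24% of windows.

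R1A1 peaks on unplaced X contigs were frequent in each replicate, with more of them strong in replicate 2. Of R1A1 peaks on unplaced X contigs, 24 of 289 (8.30%) had a score of 830 or more in replicate 1 and 61 of 335 (18.2%) in replicate 2. The median percentile of those matched in both was 67.0 in replicate 1 and 87.7 in replicate 2, and 152 of 199 ranked higher in replicate 2. These peaks lie on copies of 1 element, with a median of 42 copies of their words in the assembly, and are not independent of each other.

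The conservative list again split R1A1 by place. It held all 57 such peaks of unplaced X contigs and both of the Y chromosome. It held none of the 7 on contigs of unknown chromosome and none of the 18 on arms, although all had reached the score of 830.

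Peaks fell along the whole of R1A1, most densely in 1 bin near its start. The 385 R1A1 members were placed along the copy on the X arm, which is 5333 bases long. The bin of bases 501 to 750 held 36 of them, 34 of these on unplaced X contigs, or 55.4 per 100 R1A1 windows, while the other bins held 14.3 to 38.9 per 100. In that bin 11 members had a score of 830 or more, and the median signal percentile of the 36 was 93.5. The bin was also the fullest in replicate 1 (34 peaks) and in replicate 2 (38), and on the arms, where it held 13 of 109 placed R1A1 peaks and 6 of the 18 with a score of 830 or more. The bin was singled out after its values were seen.

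**Figure D4:**
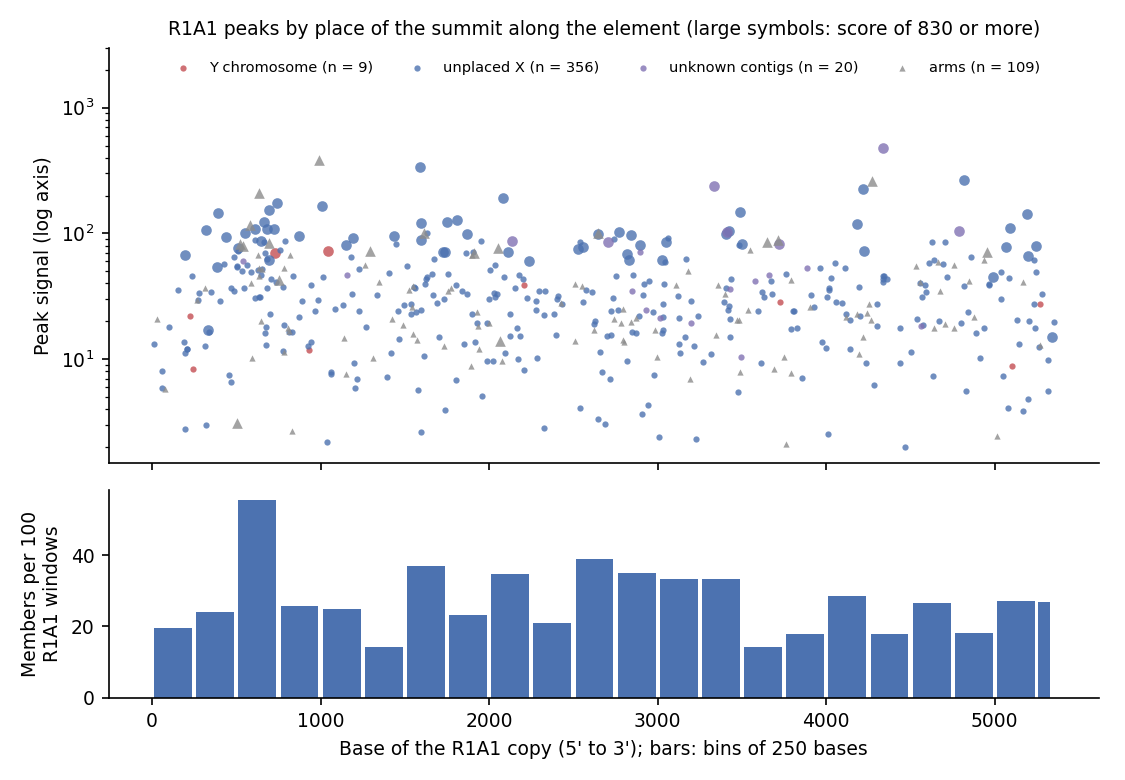
Above, signal (log axis) of each R1A1 peak against the base of the R1A1 copy under its summit; large symbols have a score of 830 or more, circles are members and triangles are arm peaks. Below, members per 100 R1A1 windows of the same classes in bins of 250 bases, highest in the bin of bases 501 to 750 at 55.4.

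The stretch printed above from that bin is longer under these peaks than the 100 bases of the copy on the X arm. Under the Y peak 18 of 112 bases differed from that copy or were missing from it, under the first unplaced X peak 11 of 103, and under the second 20 of 112. The signals of these peaks were 69.5 on the Y, 174 at the first unplaced X peak and 154 at the second.

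With the Y chromosome and its contigs taken as 1 class, the unplaced X contig CP007103v1 was the one contig, apart from the Y chromosome, with at least 5% of the members of its class. It is 33320 bases long and held 40 ranked peaks, 33 of them on R1A1. A score of 830 or more was reached by 10 of the 40, and 8 of these were R1A1. Replicate 1 had 31 ranked peaks on it and replicate 2 had 35. The Y contigs with most peaks, CP007109v1, CP007107v1 and CP007117v1, held 39, 35 and 26, none with a score of 830 or more. The next, CP007111v1, held 17, and 5 of these had such a score.

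The 28S rRNA gene, the target of R1, had its strongest peak at the insertion point. A window matched the complete 28S gene of the rDNA contig (28SrRNA:CR45844, 3970 bases) at 18 members, 8 on unplaced X contigs and 10 on contigs of unknown chromosome. The annotated R1A1 copy on the X arm ends 1 base before a 28S fragment (28SrRNA-Psi:CR40741) that begins at base 2713 of the gene, which is taken here as the insertion point. The strongest unplaced X peak had its summit at base 2733, 20 bases past that point. Its signal was 1050.5 in the list of both replicates, 253 in replicate 1 and 822 in replicate 2, at percentiles of 99.6 in replicate 1 and 99.98 in replicate 2. The peak is in the conservative list.

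The other members whose windows matched 28S sequence were far weaker. Their signals ran from 3.98 to 55.02. The highest of them, on another unplaced X contig, matched bases 2635 to 2723 of the gene, and its window was assigned to R1A1. Its summit lay outside the 28S match, and base 2735 is its place only when that match is extended. Where a summit lay outside its 28S match, its place was read by extending the match. Of the 18 members 9 were so placed in the bin after base 2600 and up to base 2800, where 18 of 162 windows with 28S sequence lie. This bin was drawn around the insertion point after the strongest peak had been seen, so the count is no support for that place. In the list of replicate 2, the highest of these weaker peaks also had a score of 1000. So did a peak on the rDNA contig whose signal was 67.0 and whose summit was placed at base 2694. No ranked peak lay in the 3 annotated pre-rRNA genes of the rDNA contig, nor in the annotated 18S, 5.8S or 2S genes. Of 5 annotated 28S genes and pseudogenes, 3 held 9 ranked peaks, of which 5 were matched in both replicates. The 1 of these with a score of 830 or more had a signal of 105 and matched R1A1. No 5S gene is annotated on these contigs.

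The rDNA contig (CP007120v1 of the unknown class) had 31 ranked peaks, of which 13 were matched in both replicates. The 3 with a score of 830 or more were all R1A1. The strongest (chrUn_CP007120v1:53163-53502) had a signal of 475, with 165 in replicate 1 and 318 in replicate 2, and its summit lay 1771 bases from a pre-rRNA gene, CR45846. The next (chrUn_CP007120v1:52158-52497) had a signal of 239, with 41.3 in replicate 1 and 204 in replicate 2. Peaks of the contig that did not match R1A1 did not exceed a signal of 63.6.

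The dodeca satellite was the main content of the strong peaks on contigs of unknown chromosome. A family of 474 members, linked by sequence identity of at least 90% over 100 bases, is called the dodeca family here. An exact tandem run of a unit of 11 bases was in 313 of them and of 12 bases in 64. The rest belong by sequence identity alone. The family lies on 95 contigs that RefSeq labels 3CEN and makes up 474 of the 551 members with that label. Of the family 43 had a score of 830 or more (9.07%), out of 64 in the whole class, and 245 (51.7%) were matched in both replicates. Signals ran from 2.36 to 207 with a median of 28.1, so the family spans weak and strong peaks.

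An exact tandem run of a unit of 11 or 12 bases was found in 377 members of the class (22.8%), beside 7.24% of all its windows. Units of over 10 bases were searched after the data were seen; with units of 1 to 10 bases only 9 members had a run. In replicate 1, 314 of 983 peaks had the run and 19 of these had a score of 830 or more. In replicate 2, 340 of 1271 had it, and 44 of these had such a score. The matched family ranked at a median percentile of 68.7 in replicate 1 and 84.9 in replicate 2, and 176 of 245 members were higher in replicate 2. On the arms, the 11-base unit of the printed dodeca repeat made an exact run in 112 peaks (0.0965%), beside 0.0767% of arm windows. Of these 112 peaks, 11 had a score of 830 or more. The 12-base unit made one in 45 arm peaks (0.0388%), beside 0.0271% of arm windows, and 2 of these had such a score. Of the 377 members with a run, 36 had such a score.

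**Figure D5:**
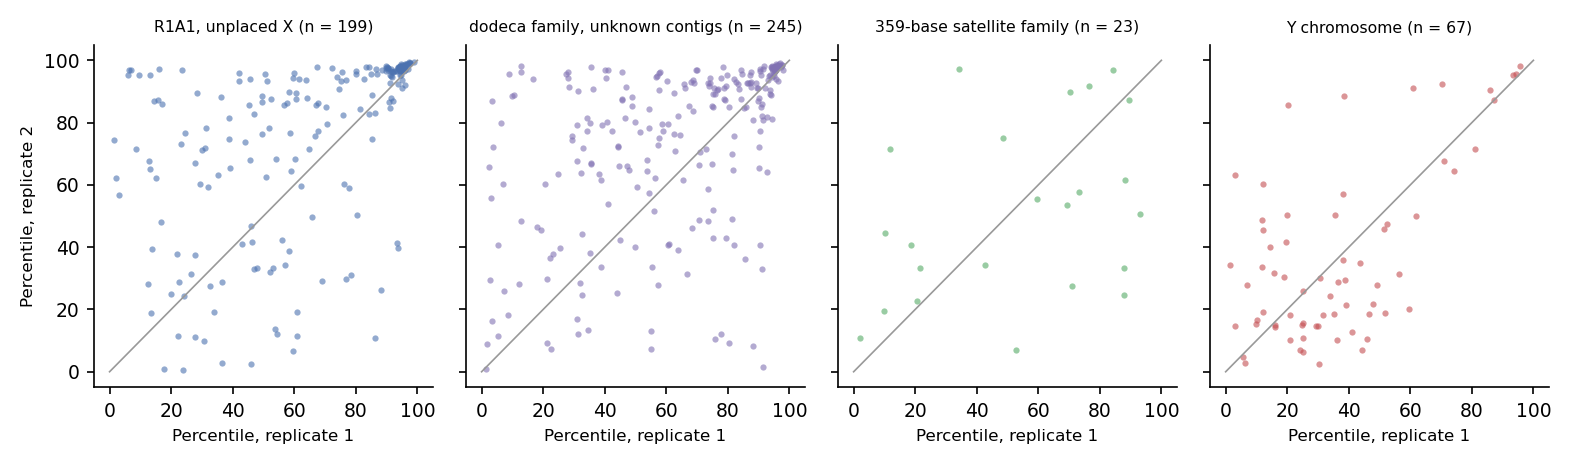
Signal percentile in the ranked list of replicate 1 (horizontal) and replicate 2 (vertical) for members matched in both; the line marks equal percentiles. R1A1 on unplaced X contigs (152 of 199) and the dodeca family (176 of 245) lie mostly above the line, and the 359-base satellite family (12 of 23) and the Y chromosome (27 of 67) do not.

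The satellite with 359-base spacing, the unit length known for the main satellite of the X, gave peaks of low median signal and none with a score of 830 or more. Its family had 103 members, 95 on unplaced X contigs and 8 on contigs of unknown chromosome, at a median G+C of 30.8%. The highest signal was 72.6 and the median 12.6. The share of windows in this family was not counted. Of its members 102 matched no annotated element, and on unplaced X contigs sequence without an element made up 23.7% of peaks and 60.2% of windows. Of the 103, 23 (22.3%) were matched in both replicates. Its words had a median of 53 copies in the assembly, beside 42 for the dodeca family and 42 for R1A1 peaks on unplaced X contigs. Copies in the genome itself were not counted, and the part of copy number in these signals was not tested.

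The strongest member of all rested on a short repeat. The peak at chrUn_CP007100v1:6187-6383 had a signal of 1383 in the list of both replicates, 491 in replicate 1 and 996 in replicate 2. Its summit was at the same base in both. Its repeat AAGGC ran for up to 105 bases on that contig, and the longest run found on any arm was 20 bases. The third strongest of the class (chrUn_DS485995v1:102-441) covered a run of AACAC next to Rt1b sequence, with signals of 297 in the list of both replicates, 124 in replicate 1 and 195 in replicate 2. A run of AACAC reached 210 bases on that contig, against 25 on the X arm.

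The other named peaks on contigs of unknown chromosome were a second Rt1b peak with a signal of 252, a TART-A peak with 229.6 and a peak of 175 on a contig labelled 3CEN. The named peaks on unplaced X contigs other than the 28S peak had signals of 191 to 341. R1A1 lay under 4 of these 7, baggins under 1 and F under 1, and 1 matched no annotated element. The F peak was the single one of the 8 below a score of 830, with 706. Its signal was 32.5 in replicate 1 and 166 in replicate 2.

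On Y contigs, gypsy12, a retrovirus-like element, and TART-A were the most frequent elements, and TART-A and HeT-A were the most frequent among strong peaks. TART-A matched 60 of 354 peaks (16.9%), beside 7.47% of all windows, and gypsy12 matched 75 (21.2%), beside 12.1%. HeT-A matched 18 (5.08%), beside 5.34%. Of the 21 Y contig peaks with a score of 830 or more, 7 were TART-A, 5 HeT-A, 2 the 1360 transposon and none gypsy12, and 7 matched no element. TART-A peaks had a median percentile of 54.0, against 24.5 over the class.

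The strongest Y contig peaks were HeT-A and TART-A. The HeT-A peak printed above had a signal of 276 in the list of both replicates, 117 in replicate 1 and 159.8 in replicate 2. A second HeT-A peak (chrY_DS484094v1_random:535-874) had 196, with 65.0 in replicate 1 and 129.5 in replicate 2. TART-A peaks followed with 193 (chrY_DS485143v1_random:186-525) and 183 (chrY_DS484589v1_random:1339-1678). After them came a 1360 peak with 165, and peaks that matched no element with 158 and, on CP007111v1, 129. Each of these had a score of 1000 in the list of both replicates. In the replicates' own lists, the TART-A peak with 183 had a score of 389 in replicate 1 and 1000 in replicate 2. The peak on CP007111v1 had 1000 in replicate 1 and 35 in replicate 2, with signals of 80.7 and 37.9. The others had 1000 in each.

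On the Y chromosome itself, 4 peaks had a score of 830 or more, and these are the ones in the conservative list. The strongest (chrY:975734-976073) matched 1360, a DNA transposon, at 82.4% identity and had a signal of 126, with 46.3 in replicate 1 and 79.9 in replicate 2. Both R1A1 peaks followed. The first (chrY:989224-989563) had a signal of 73.0, with 38.0 in replicate 1 and 38.8 in replicate 2. The second, whose sequence is printed above, had 69.5, with 33.4 in replicate 1 and 36.9 in replicate 2. The last (chrY:3017777-3018116) matched TART-A with a signal of 62.6, with 33.2 in replicate 2 and no summit within 100 bp in replicate 1, where the nearest was 122 bp away. In the replicates' own lists, only the 1360 peak had a score of 830 or more in both, with 981 and 1000. The first R1A1 peak had 204 in replicate 1 and 895 in replicate 2. The second had 560 and 242, and the TART-A peak had 462 in replicate 2. No annotated gene lay within 2000 bp of any of the 4 peaks.

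Ranked peaks were spread unevenly along the Y chromosome. In bins of 250000 bases the density ran from 12.5 per megabase of known sequence to 521 in the last, shorter bin. Any annotated element matched 71.3% of the 616 peaks and 76.2% of windows, and no single one was frequent. The transposon 1360 matched 6.33% of peaks (10.01% of windows), HeT-A 5.03% (5.27%), Rt1b 4.38% (2.15%), GATE 3.25% (4.62%), Idefix 2.76% (4.96%), TART-A 2.60% (0.901%) and gypsy12 2.44% (6.06%).

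Peaks in the Y genes were weak, at densities on both sides of that of the Y chromosome. The giant genes kl-3, kl-5 and kl-2, which encode dynein heavy chains of the sperm tail, held 70, 41 and 26 peaks, with highest signals of 24.7, 25.5 and 21.5. Per megabase of known sequence that was 328 in kl-3, 359.8 in kl-5 and 353 in kl-2, against 181 over the Y chromosome. In kl-5, 12 of the 41 were matched in both replicates, but in kl-3 only 2 of 70 and in kl-2 3 of 26. ORY held 25 peaks, CCY 8 and PRY 18, with highest signals of 22.6, 19.6 and 17.3 and densities of 630.3, 759.5 and 393 per megabase. Ppr-Y, a protein phosphatase regulator gene, held 29, and WDY, a WD-repeat protein gene, held 23. Their densities, 121 and 114 per megabase, lay below that of the chromosome.

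In the short Y genes the counts are too small for a density to be read. Pp1-Y2, a protein phosphatase gene, held 3 peaks with a highest signal of 8.02, FDY held 2, ARY 1 and Pp1-Y1 none. None of the peaks in the 12 genes had a score of 830 or more. Of the starts of these genes, 6 had a peak within 1000 bp, and the highest signal there was 18.0, at ARY.

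The Stellate system of X and Y repeats had no strong peak. Su(Ste), the Y-linked family that gives rise to small RNAs silencing Stellate, has 34 annotated copies here, 27 on the Y chromosome and 7 on Y contigs. They held 8 peaks in 7 copies, with signals of 11.3 to 24.8, and 2 of the 8 peaks were matched in both replicates. These copies span 42.15 kb in all, so their number of peaks is near what the 181 per megabase of the Y chromosome gives. The 1 Stellate copy annotated on an unplaced X contig held none, but it spans only 0.732 kb.

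Words bound by bZIP and other factors were searched in the same windows on both strands, and their shares in peaks are given beside those of all windows as a description. They were TGACGTCA (CRE), TGANTCA (AP-1), TTGCGCAA (C/EBP), TTACGTAA (PAR bZIP), CACGTG (E-box), CAGGTAG (Zelda), GAGAGAG (GAF), TATCGATA (DREF) and CGATA (BEAF-32, which also lies within the DREF word). On unplaced X contigs R1A1 matched 62.6% of peaks and 27.5% of windows, and the part of this repeat content in the word shares was not tested. The E-box word was in 4.57% of peaks and 2.13% of windows there. The GAF word was in 33 of the 569 peaks there and in 3.45% of windows. The BEAF-32 word was in 19.7% of those peaks and 12.2% of windows. On the Y it was in 23.9% of peaks and 24.8% of windows, and on contigs of unknown chromosome in 15.2% and 19.9%. The E-box word was in 2.27% of Y peaks and 1.93% of windows, and in 1.87% and 1.304% on contigs of unknown chromosome. The GAF word was in 4.02% and 2.71% on the Y and in 2.36% and 2.18% on contigs of unknown chromosome. The DREF and PAR bZIP words were in no unplaced X peak, and in 0.0% and 0.0227% of windows. The C/EBP word was in 1.58% of unplaced X peaks (9 peaks, 3 of them with a score of 830 or more) and 0.794% of windows, in 0.103% and 0.180% on the Y and in 0.242% and 0.279% on contigs of unknown chromosome. The CRE word was in 0.619% of Y peaks and 0.413% of Y windows, in 0.176% (1 peak) and 0.0681% on unplaced X contigs and in 0.242% and 0.362% on contigs of unknown chromosome. The AP-1 word was in 4.43% of Y peaks and 3.63% of windows, and in 2.81% and 5.29% on unplaced X contigs. On contigs of unknown chromosome it was in 2.24% and 2.81%. The Zelda word was in 1.75% of Y peaks and 1.07% of windows, and in 0.351% (2 peaks) and 0.545% on unplaced X contigs. On contigs of unknown chromosome it was in 1.03% and 0.858%. The DREF word was in 0.928% of Y peaks and 0.788% of windows, and in 0.302% and 0.474% on contigs of unknown chromosome. For the PAR bZIP word these shares were 0.103% and 0.175%, and 0.181% and 0.156%.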

How the data were processed

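Chromatin immunoprecipitated with an anti-GFP antibody was sequenced in 2 samples, and per the labels the chromatin was sonicated to between 200 and 800 bp and the assembly is dm6. The authors deposited peak lists with a signal per peak (no normalization stated), a whole-number score derived from the IDR, and the −log10 of the IDR, per the file listings. The sources used here name no aligner or peak caller. Depth is unknown, so no counting interval is given. In the ranked lists 8 further columns of signal, which no header ties to a sample, were not used.

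The members and lists were chosen with earlier results of these data known. Contig names of the files were paired with RefSeq records by number; for all 1077 records with a peak in any list (the Y chromosome included) the peak ends lay within the record and the chromosome label fitted. Windows reaching 100 bases to each side of summits were compared with all adjoining windows of the same class (every 10th on the arms). These include contigs without a ranked peak. Transposable elements are best BLAST+ 2.17.0 matches of at least 80% identity over 80 bases to 5734 copies annotated by RefSeq, with nested copies masked. Windows were joined into families at 90% identity over 100 bases. 28S matches needed 90% identity over 50 bases. Tandem runs needed at least 3 units and 20 bases. Regions were named by rule: in each class the 8 of highest signal and, for the Y, all conservative peaks; contigs with 5% of a class; 12 Y genes; and the rRNA, Su(Ste) and Stellate families. Tables were made with pandas 2.3.3 and numpy 2.4.6 under Python 3.11.15. Copy counts, tandem runs and summit matching were tested on simulated data. Alternatives were other lists, scores, match distances, word lengths and each replicate left out.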

Additional observations from a re-analysis of the deposited data

How the results depend on the processing

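With either replicate left out, ranked peaks numbered 446 to 596 on the Y (970 with both) and 983 to 1271 on contigs of unknown chromosome (1655 with both), and peaks with a score of 830 or more 12 to 19 on the Y, 30 to 75 on unplaced X and 35 to 78 on unknown contigs. Median signal percentiles were then 25.3 to 26.3 on the Y, 52.6 to 60.6 on unplaced X and 35.5 to 35.8 on unknown contigs; the second list of both replicates gave 27.4 on unknown contigs. In single-copy sequence alone the medians were 19.4 on the Y, 64.1 on unplaced X and 21.5 on unknown contigs. A score of 540 or more raised the counts to 38 on the Y and 99 on unknown contigs, and membership of the conservative list left 4 on the Y and 0 on unknown contigs. Peaks matched in both replicates on the Y numbered 226 within 250 bp and 241 by overlap of intervals, and 741 by overlap on unknown contigs. Y peaks in repeated sequence numbered 368 with 51-base words and 336 at 5 or more copies. Tandem units of up to 20 bases, added after the data were seen, gave 387 members of the unknown class. The cause of these moves was not tested. No paired analysis was possible because the samples form 1 group. With 2 samples, without reads and controls, and with many members on copies of one sequence, neither depth nor mappability could be assessed.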

Other observations

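Smaller sequence families spread over several classes. Of 1457 families, 1127 had a single member and 11 had at least 15. A gypsy12 family had 36 members, 25 of them on Y contigs, none with a score of 830 or more and a highest signal of 32.2. A family of 23, of which 10 windows matched the G2 element, lay on 10 Y contig, 10 unknown contig, 2 Y chromosome and 1 unplaced X peak, with 2 peaks at a score of 830 or more and a highest signal of 158. A GATE family of 18 had a highest signal of 19.8 and a 1360 family of 18 one of 59.3. Among members with a score of 830 or more, 4 of 154 had a signal under 20, while the median of the 154 was 95.2.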
